A study of Mus musculus with 6 samples.

Results

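The 39 genes described here encode the machinery that licenses replication origins, copies DNA, supplies its nucleotides and rebuilds chromatin behind the fork. They were chosen by name from the authors' deposited table of 26778 genes, and all 39 had a row there. The cells were bone marrow-derived macrophages, that is, macrophages grown from mouse marrow in culture, of strain background C57BL/6. The wild type group, Flt-1+/+ (VR1+/+), and the heterozygote group, Flt-1+/- (VR1+/-), held 3 libraries each. Flt1 encodes VEGF receptor 1. Marrow of both groups was grown for 7 days in RPMI that held 10% FCS as well as conditioned medium of L292 cells at 10%. All 6 cultures were then held in starvation medium at 2% oxygen for 6 h, so the comparison is between genotypes under the same challenge and no unchallenged culture was analysed here. The labels give neither age nor sex, nor whether each library came from its own mouse, so the spread behind the p-values may be technical.

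Before S phase, the origin recognition complex, Cdc6 and Cdt1 load the Mcm2 to Mcm7 ring onto DNA as an inactive helicase. Kinases, Mcm10, Cdc45 and the GINS complex then turn it into the moving fork, behind which the polymerases, the sliding clamp Pcna, its loader and the nick-sealing enzymes complete both strands. Transcription of most of these genes is driven by E2F factors late in G1 and falls in cells that leave the cycle. Macrophages grown from marrow divide in response to the growth factor in their conditioned medium, and serum starvation and low oxygen are both known to restrain entry into S phase.

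Counts of each library, in whole reads, were worked back from the deposited group means, and values per library below are these counts divided by the library's size factor (normalized counts). The libraries are called A, B and C within a group, letters that cannot be matched to the numbers in the labels. They held between 25100000 and 42100000 counted reads, to the nearest 100000. The mitochondrial transcript mt-Co2 had no reads in 3 libraries (C of the wild type, B and C of the heterozygote). In the other 3 it stood at 4259.9 and 4069.6 normalized counts (A and B of the wild type) and 4751 (A of the heterozygote), a division that the labels do not explain. Flt1 stood at 3.70, 10.3 and 6.04 normalized counts in wild type and 17.1, 12.9 and 8.19 in heterozygote libraries A, B and C, so the targeted gene was not lower in the libraries labelled heterozygote and at these few reads does not check the labels. Macrophage markers were abundant and 3 of 9 (Csf1r, Cd68 and Mrc1) fell by the deposited test, with group means from 1971 to 458049 normalized counts. Of 12 markers of neutrophils and their precursors, 8 were higher in the heterozygote group by the deposited test. Their summed level was 161 to 199 in wild type and 3053 to 4038 in heterozygote libraries. The primary granule genes Elane, Prtn3 and Ctsg were listed at 0 in wild type, and with Mpo lay under 5 in both groups. Haematopoietic progenitor markers summed to 119 to 148 in wild type and 90.1 to 117 in heterozygote libraries, and 0 of the 3 tested were called by the deposited test. Single markers of other cell types were also called, with no overlap between the groups. The immunoglobulin genes Igkc (mean 358 in wild type, 15.1 in heterozygote) and Jchain (47.2 and 3.68) and the dendritic cell gene Ccr7 (26.9 and 6.86) fell, and the stromal gene Acta2 (97.7 and 255) rose. Marker sums in the heterozygote libraries against wild type were 788 to 1318 against 605 to 922 (stromal), 5724 to 6699.5 against 5835 to 6361 (B and plasma cell), mostly Cd79b, 16.3 to 32.8 against 54.6 to 59.7 (dendritic cell), 9.94 to 31.8 against 9.33 to 13.1 (T and NK cell), 2.45 to 5.96 against 3.73 to 11.1 (erythroid) and 18.9 to 24.5 against 16.8 to 32.4 (mast cell and basophil). The part of these other cells in the results below was not tested, and in these bulk libraries a different number of cells in S phase and a different amount of these transcripts per cell cannot be told apart.

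The promoters of these genes carried letters of the E2F motif more often than promoters in general. RefSeq promoter windows (build GRCm38.p6, 250 bases before to 50 after a gene's start) were at hand for 32 of the 39 genes. They were searched on both strands for TTTCGCGC, TTTGGCGC and TTTCCCGC, which can overlap one another on opposite strands, and 13 of the 32 genes (40.6%) held at least 1 match, against 2.12% of 27025 genes. Of these 13, 7 were licensing genes, out of 9 licensing genes with a window. Matches were found in 2 of 4 genes of polymerases and primase and 2 of 6 of the clamp group. Helicase activation and chromatin assembly had 1 of 3 each, nucleotide supply 0 of 5 and the G1/S regulators 0 of 2. The E2F letters were not particular to the 39: among further replication genes, described below, 16 of 56 with a window (28.6%) held a match. For CCAAT, which many promoters share, the figures were 56.2% of the 32 genes and 41.1% of all genes. Mitotic genes showed the reverse arrangement: 1 of 26 held the E2F letters, but 20 (76.9%) held TTTGAA or TTCGAA, the letters of the CHR element of late cell cycle genes, against 18.8% of the replication genes and 21.7% of all genes. A match is a description of the letters and not a site shown to be bound. The windows of 4 genes that recur below follow, written 5′ to 3′ in the direction of transcription, in lower case with E2F letters in capitals. Mcm6 and Mcm5 are ring subunits with overlapping matches on both strands, and Pold1 has the lowest fold change of the 39. Mcm10 is the gene with the largest difference and holds no full match within its window. That window ends in TTTGGCG, all but the last letter of TTTGGCGC, and the next base was not searched.
Mcm6, chr1:128359656-128359955, minus strand: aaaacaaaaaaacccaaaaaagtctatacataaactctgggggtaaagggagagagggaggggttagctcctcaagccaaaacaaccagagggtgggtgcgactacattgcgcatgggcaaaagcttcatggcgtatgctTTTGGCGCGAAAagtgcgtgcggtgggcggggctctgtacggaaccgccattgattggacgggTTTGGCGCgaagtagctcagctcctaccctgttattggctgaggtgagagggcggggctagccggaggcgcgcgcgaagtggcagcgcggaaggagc
Mcm5, chr8:75109259-75109558, plus strand: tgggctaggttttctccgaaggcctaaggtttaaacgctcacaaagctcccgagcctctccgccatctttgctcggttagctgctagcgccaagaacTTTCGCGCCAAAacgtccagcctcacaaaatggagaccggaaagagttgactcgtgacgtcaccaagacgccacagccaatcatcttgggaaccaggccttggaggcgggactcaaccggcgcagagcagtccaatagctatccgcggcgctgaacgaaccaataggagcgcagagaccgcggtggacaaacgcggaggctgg
Mcm10, chr2:5012742-5013041, minus strand: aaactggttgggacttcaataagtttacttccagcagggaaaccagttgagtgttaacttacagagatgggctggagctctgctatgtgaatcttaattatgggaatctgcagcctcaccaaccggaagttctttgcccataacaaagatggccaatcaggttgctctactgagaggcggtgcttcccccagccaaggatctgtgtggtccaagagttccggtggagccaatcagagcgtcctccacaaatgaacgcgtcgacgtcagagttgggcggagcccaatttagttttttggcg
Pold1, chr7:44548766-44549065, minus strand: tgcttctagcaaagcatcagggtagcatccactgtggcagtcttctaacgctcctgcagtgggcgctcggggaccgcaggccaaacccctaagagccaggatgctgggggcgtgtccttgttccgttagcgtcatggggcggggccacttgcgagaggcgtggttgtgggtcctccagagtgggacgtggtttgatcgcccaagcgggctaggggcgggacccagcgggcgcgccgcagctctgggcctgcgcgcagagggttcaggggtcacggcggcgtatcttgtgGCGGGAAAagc
The median log2 ratio between genotypes was 0.24 over the 13 genes with E2F letters in a window and 0.30 over the 19 without them. Both groups spanned negative and positive values, from -0.39 to 0.53 and from -0.19 to 0.76. The highest of the 19 was Mcm10, whose window ends before the last letter of a possible match.

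In the heterozygote libraries the replication genes stood slightly higher as a group, but few of them passed the test. By the authors' deposited table, 2 of 39 rose at an adjusted p of 0.05, Mcm10 and Pole, and none fell. At an unadjusted p of 0.05, 9 were higher and 0 lower, against 7.34% of all tested genes higher. The 2 calls are 5.13% of the genes, and over all 15789 tested genes 6.04% were called in either direction and 2.51% upward and 3.52% downward, so the count of calls is near the background. By the authors' deposited table, 34 of 39 genes had a log2 fold change above 0, against 49% of all tested genes. The median log2 ratio of group means (pseudocount 1) was 0.21, and -0.0068 over all tested genes. All 3 heterozygote libraries lay above all 3 wild type libraries for 15 genes, and below them for 0. Among all genes with a mean of at least 10 normalized counts, 11.2% were arranged upward in this way. Summed over the 39 genes, normalized counts were 22875, 24999.5 and 25107 in wild type libraries A, B and C and 27528, 28156 and 27618 in heterozygote libraries A, B and C, with no overlap. The median log2 difference was 0.27 within the libraries that held mt-Co2 reads (31 of 39 genes above 0) and 0.18 within those without (30 of 39), and in each of these sets 1 genotype is represented by 1 library. limma on the recovered counts called 1 of the 39, Mcm10, against 2.15% of 15075 genes (0.803% upward, 1.35% downward). At an unadjusted p of 0.05 limma had 13 of the 39 higher and 0 lower, against 7.94% of all genes higher. The limma call of Mcm10 was lost when any 1 library was left out. Of all genes, limma called 0.663%, 0.272% and 0.312% without wild type library A, B or C. Without heterozygote library A, B or C the shares were 0.889%, 2.24% and 0.418%. Mcm10 was also the single gene of the 39 that limma called with upper-quartile scaling (1.86% of all genes), with the presence of mt-Co2 reads as a term (3.02%) and with no filter on low counts (1.13%). By the deposited test 1 of the 39 passed an adjusted p of 0.01, against 3.64% of all tested genes in either direction. At 0.1, 7 of the 39 passed, all of them higher, against 8.03% of all tested genes in either direction. Of the 15789 tested genes, 565 were higher at 0.1.

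**Figure D1:**
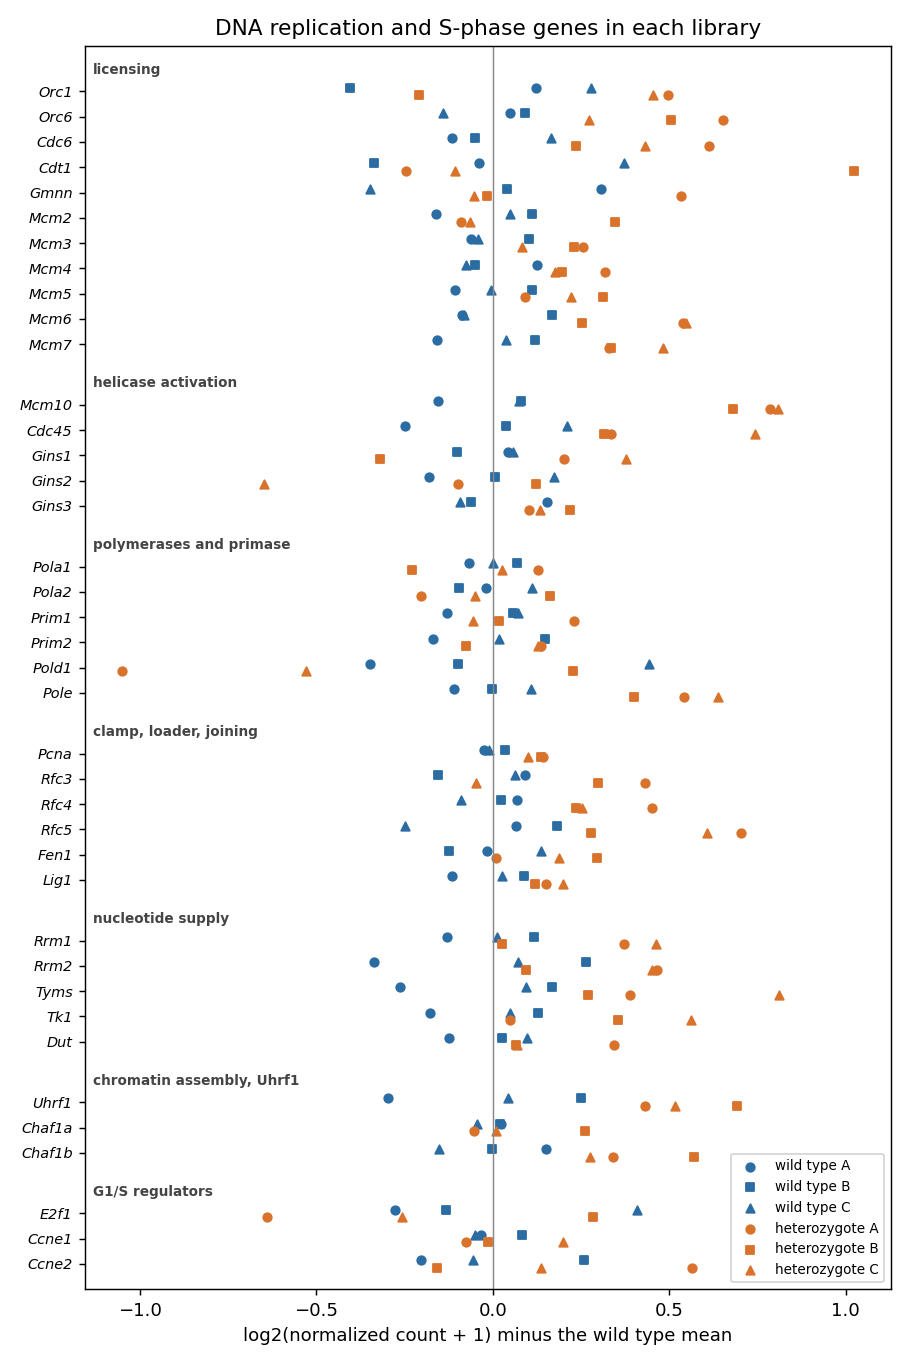
Each point is 1 library's log2(normalized count + 1) minus the wild type mean of that gene, for wild type (blue) and heterozygote (orange) libraries A, B and C, with the 39 genes grouped by role. Orange points lie wholly to the right of blue ones for 15 genes, among them Mcm10 and Pole, and mix with them for the other 24, with Cdt1, Pold1 and E2f1 spread widest between libraries of a genotype.

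Among the 11 licensing genes every deposited log2 fold change was above 0, against 49% of all tested genes, and none passed the test. By the deposited test 3 were higher at an unadjusted p under 0.05, against 7.34% of all tested genes. limma called none of them either, with 5 higher at an unadjusted p under 0.05, against 7.94% of all genes. Orc6, a subunit of the origin recognition complex, stood at 275, 283 and 240.4 normalized counts in wild type libraries A, B and C and at 417, 377 and 321 in heterozygote libraries A, B and C. The heterozygote libraries all lay above the wild type ones, and the authors' deposited table lists a log2 fold change of 0.43 (SE 0.16) and an adjusted p of 0.0873. Orc1, the largest subunit of the complex, was scarce at 48.5 to 78.5 in wild type and 55.7 to 91.3 in heterozygote libraries, and the groups overlapped. Cdc6, the ATPase that works with the origin complex to load the ring, had 103, 107 and 125 in wild type and 170.4, 131 and 150.2 in heterozygote libraries. These did not overlap either, but the authors' deposited table has an adjusted p of 0.336. Cdt1, which brings the ring to the origin, had 295, 239.7 and 392 in wild type and 255, 616 and 281 in heterozygote libraries, with heterozygote library B far above every other library and the groups overlapping. Gmnn, geminin, the inhibitor of Cdt1, overlapped as well, at 285 to 449 in wild type and 349 to 526 in heterozygote libraries, with an adjusted p of 0.872 (the authors' deposited table).

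The 6 subunits of the ring are needed in equal numbers, and their ratios between genotypes ranged from 1.05-fold for Mcm2 to 1.36-fold for Mcm6. Mcm6 stood at 746, 889.6 and 748 normalized counts in wild type and 1150.4, 944 and 1159 in heterozygote libraries. Mcm7 stood at 739, 895 and 845 in wild type and 1035, 1039.7 and 1151 in heterozygote libraries. Mcm4 stood at 1161, 1029.5 and 1011 in wild type and 1328, 1221 and 1204 in heterozygote libraries. For these 3 subunits every heterozygote library exceeded every wild type library. Among the subunits Mcm6 came closest to the threshold, with a log2 fold change of 0.41 (SE 0.14) and an adjusted p of 0.0568 (the authors' deposited table), and the adjusted p of Mcm7 there was 0.0780. Mcm4, the most abundant licensing gene in counts, had a log2 fold change of 0.22 (SE 0.12) and an adjusted p of 0.371 (the authors' deposited table). Mcm3, at 993 to 1113 in wild type and 1097 to 1238 in heterozygote libraries, and Mcm5, at 741 to 863 in wild type and 851 to 991 in heterozygote libraries, overlapped by 1 library each. Mcm2 was the subunit with the smallest difference, at 620.5, 749 and 718 in wild type and 651, 882 and 663 in heterozygote libraries. Its log2 fold change in the authors' deposited table was 0.066 (SE 0.16, adjusted p 0.929), with a 95% interval from -0.25 to 0.38. The difference between subunits was not tested. Per kb of exon, counted over the union of all annotated exons, Mcm2 was the lowest of the 6 in every library, at 89.2 to 127 normalized counts per kb. Its union was also the longest, at 6956 bases, against 3589 (Mcm4) to 4666 (Mcm6) for the other subunits. This length can exceed that of the transcript a cell makes, and its part in the order of the subunits was not tested. The highest was Mcm4 in 5 libraries and Mcm3 in wild type library B, at 282 to 370.1.

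Helicase activation held the gene with the largest difference and the smallest adjusted p. Mcm10, a scaffold that joins the ring to the polymerase that starts each strand, stood at 197, 232 and 231 normalized counts in wild type libraries A, B and C and at 379, 353 and 385 in heterozygote libraries A, B and C. Heterozygote libraries were 1.69-fold higher in the mean (372 ± 17.1 against 220.2 ± 20.1, SD, n = 3 each), and the lowest of them exceeded the highest wild type library by more than either SD. The authors' deposited table lists a log2 fold change of 0.69 (SE 0.15) and an adjusted p of 0.000218. With limma the adjusted p was 0.0343, and from 0.0518 to 0.135 without 1 library, with log2 fold changes of 0.68 to 0.80. The gene lies on chromosome 2, 4989714 to 5012791 in build mm10. Cdc45, which travels with the ring at the fork, had 131, 160.4 and 181 in wild type and 197, 195 and 262 in heterozygote libraries, with no overlap and an adjusted p of 0.292 (the authors' deposited table). The GINS subunits, which hold Cdc45 and the ring together, were not called. Gins2 was lower on average, at 681, 776 and 872 in wild type and 722, 841 and 493 in heterozygote libraries, with heterozygote library C lowest and a log2 fold change of -0.15 (SE 0.19) and an adjusted p of 0.818 (the authors' deposited table). Gins1, at 81.1 to 90.5 in wild type and 69.6 to 113 in heterozygote libraries, and Gins3, at 148 to 176 in wild type and 169.6 to 184 in heterozygote libraries, overlapped between groups.

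**Figure D2:**
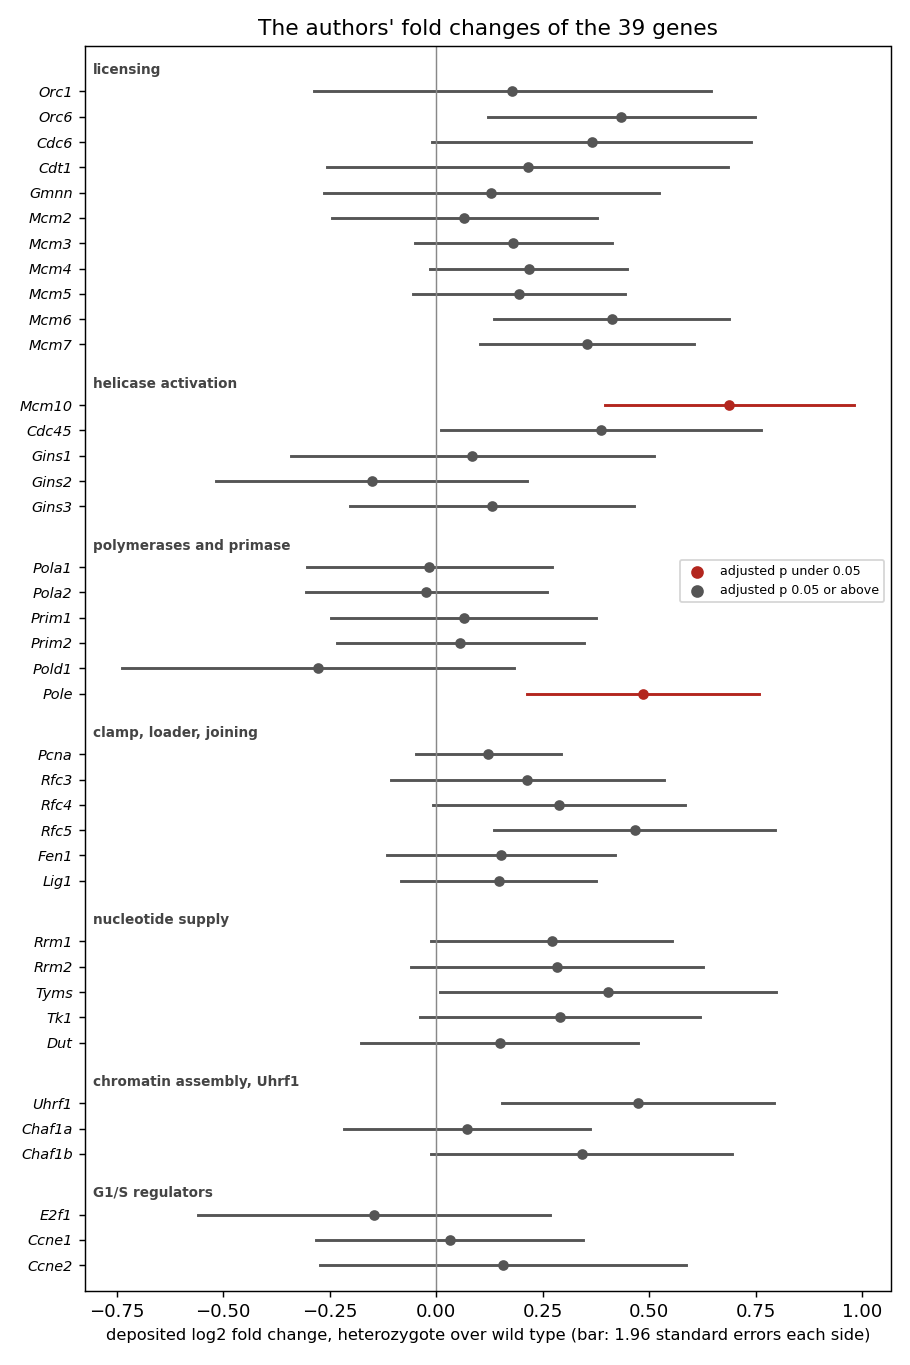
Points are the authors' deposited log2 fold changes, heterozygote over wild type, and bars their 95% intervals. Mcm10 and Pole (red) passed an adjusted p of 0.05, and Gins2, Pola1, Pola2, Pold1 and E2f1 are the 5 genes below 0.

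Of the 6 genes of polymerases and primase, 3 had a deposited log2 fold change above 0 and 3 below, and only Pole was called. Differences between these genes were not tested. Pole, the catalytic subunit of the leading-strand polymerase epsilon, rose: 350.4, 378 and 407 normalized counts in wild type libraries A, B and C and 550.3, 499 and 588 in heterozygote libraries A, B and C, 1.44-fold higher in the mean (546 ± 44.9 against 379 ± 28.5, SD, n = 3 each). The authors' deposited table lists Pole (chromosome 5, 110286306 to 110337474, build mm10) a log2 fold change of 0.49 (SE 0.14) and an adjusted p of 0.0123. limma did not call it, with an adjusted p of 0.0810, and of 0.0677 to 0.275 without 1 library. Pold1, its counterpart on the lagging strand, had the lowest fold change of all 39 genes, at 452, 537 and 783 in wild type and 277, 674 and 399 in heterozygote libraries. Heterozygote library A was lowest, but heterozygote library B exceeded 2 of the 3 wild type libraries, and the authors' deposited table lists a log2 fold change of -0.28 (SE 0.23) and an adjusted p of 0.665. The 95% interval of Pold1 reached from -0.74 to 0.18. The polymerase alpha and primase complex, which lays down the primers, had log2 fold changes near 0. Pola2, its regulatory subunit and the most abundant of this role group in counts, stood at 617, 585 and 675 in wild type and 542, 699 and 603 in heterozygote libraries, with an SE of 0.14 and an adjusted p of 0.978 (the authors' deposited table). The groups overlapped. The log2 fold changes of the 4 genes of this complex were -0.016 for Pola1, -0.023 for Pola2, 0.064 for Prim1 and 0.056 for Prim2 in the authors' deposited table. Their 95% intervals together reached from -0.31 to 0.37.

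Pcna, the sliding clamp, was by far the most abundant of the 39 transcripts per kb and the steadiest between libraries. It stood at 4753, 4946 and 4799 normalized counts in wild type and 5332, 5313 and 5176 in heterozygote libraries. These groups did not overlap, and the difference was 1.09-fold, with a log2 fold change of 0.12 (SE 0.087) and an adjusted p of 0.572 (the authors' deposited table). Of the clamp loader subunits, Rfc5 had 435, 471 and 349 in wild type and 677, 504 and 632 in heterozygote libraries, and Rfc4 had 262, 254 and 234 in wild type and 342, 294 and 298 in heterozygote libraries. Neither pair of groups overlapped, and the adjusted p in the authors' deposited table was 0.0772 for Rfc5 and 0.334 for Rfc4. Rfc3 overlapped, at 362 to 430.0 in wild type and 390.4 to 544 in heterozygote libraries. Lig1, the ligase that seals Okazaki fragments, was higher in every heterozygote library, at 915 to 968 against 779 to 896, with an adjusted p of 0.641 (the authors' deposited table). Fen1, which trims the flap before sealing, ranged from 737 to 883 in wild type and from 808 to 985 in heterozygote libraries.

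The 5 genes of nucleotide supply all had fold changes above 0, and wild type library A was the lowest library for each of them. Rrm1 and Rrm2 are the subunits of ribonucleotide reductase, which makes deoxynucleotides. Rrm1 stood at 1853, 2197 and 2046 normalized counts in wild type and 2626, 2064 and 2796 in heterozygote libraries, and Rrm2 at 540.0, 819 and 716 in wild type and 941, 728 and 932 in heterozygote libraries. In both, heterozygote library B lay among the wild type libraries while A and C lay above them, and the authors' deposited table lists a log2 fold change of 0.27 (SE 0.14) and an adjusted p of 0.353 for Rrm1. Tyms, thymidylate synthase, did not overlap, at 109, 147 and 139.8 in wild type and 172, 158 and 231 in heterozygote libraries, with an adjusted p of 0.297 (the authors' deposited table). Tk1, thymidine kinase, overlapped, at 357 to 441 in wild type and 417 to 597 in heterozygote libraries. Dut, which removes dUTP, had the smallest difference of the role group, at 193, 214 and 225 in wild type and 267, 221 and 221 in heterozygote libraries, with a log2 fold change of 0.15 (SE 0.17) and an adjusted p of 0.782 (the authors' deposited table).

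Uhrf1, which guides DNA methylation to newly copied strands, stood at 464, 678 and 587 normalized counts in wild type and 769, 920.4 and 815 in heterozygote libraries. The groups did not overlap, heterozygote library B was the highest, and the authors' deposited table lists a log2 fold change of 0.47 (SE 0.16) and an adjusted p of 0.0564. Chaf1a and Chaf1b are subunits of chromatin assembly factor 1, which places histones on new DNA. Chaf1b had 152, 136 and 123 in wild type and 173, 203 and 165 in heterozygote libraries without overlap, and Chaf1a had 359.7, 359 and 343 in wild type and 341, 424 and 356 in heterozygote libraries with overlap. The authors' deposited table lists Chaf1a a log2 fold change of 0.072 (SE 0.15) and an adjusted p of 0.912, and Chaf1b an adjusted p of 0.342. None of the 3 regulators at the entry to S phase was called, by the deposited test or by limma and at an adjusted or unadjusted p of 0.05. E2f1, an activating E2F factor, stood at 1158, 1280.4 and 1861 in wild type and 900.1, 1707 and 1174 in heterozygote libraries, with a log2 fold change of -0.15 (SE 0.21) and an adjusted p of 0.855 (the authors' deposited table). Ccne1, at 210.2 to 230.3 in wild type and 206 to 249.8 in heterozygote libraries, and Ccne2, at 92.5, 128 and 103 in wild type and 158, 95.4 and 117 in heterozygote libraries, encode cyclin E, the partner of the kinase Cdk2 at this step, and both overlapped.

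The 3 genes with the widest spread within genotype were also the 3 with the most GC-rich transcripts. The coefficient of variation between libraries of a group was 41.1% for Cdt1, 38.0% for Pold1 and 29.5% for E2f1, against a median of 10.8% over the 39. The GC content of the longest annotated transcript was 57.8%, 61.0% and 58.3%, and 49.3% in the median. The order did not hold beyond these 3. Orc1, Gmnn and Ccne2, next in spread, had a GC content of 46.7%, 49.8% and 36.3%. Fen1, Uhrf1 and Lig1, next in GC content, had a coefficient of variation of 9.53%, 14.7% and 5.40%. For Cdt1, Pold1 and E2f1 wild type library C and heterozygote library B were the 2 highest. The same 2 libraries were highest for Gins2 (53.4% GC) and Pola2 (47.0% GC). Over all 15024 genes measured with a GC value, the tenth of genes above 57.5% GC had a median deviation from their own mean over libraries of 0.33 (log2) in wild type library C and 0.31 in heterozygote library B, but -0.51 in heterozygote library A. It was -0.11 in heterozygote library C, and -0.020 and 0.054 in libraries A and B of the wild type. A fit with the GC trend of each library removed, chosen after these values were seen, moved Pold1 from -0.45 to -0.18, E2f1 from -0.20 to -0.018 and Cdt1 from 0.22 to 0.39 on the log2 scale. In that fit limma called Mcm10 (adjusted p 0.0188) and Pole (0.0417), and 4.85% of all genes.

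**Figure D3:**
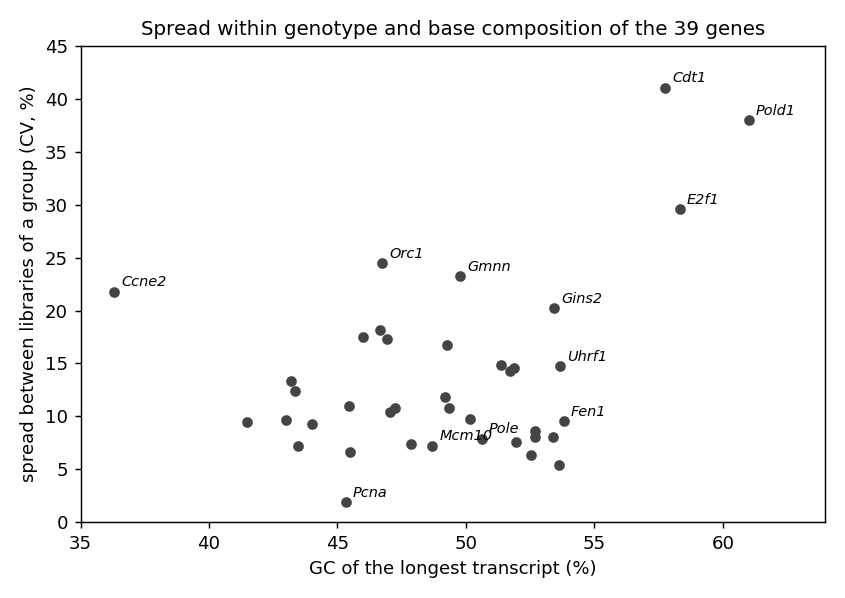
Each point is 1 of the 39 genes, with the GC content of its longest transcript (%) on the horizontal axis and its coefficient of variation between libraries of a genotype (%, both genotypes combined) on the vertical axis. Cdt1, Pold1 and E2f1 lie alone at the upper right, while Pcna has the smallest spread.

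Per kb of exon the 39 transcripts spanned about 2 orders of magnitude in wild type libraries. Pcna stood at 2014 normalized counts per kb in the wild type mean, followed by E2f1 at 454, Fen1 at 332 and Mcm4 at 297. In wild type the lowest E2f1 library (367) lay just above the highest Fen1 library (365), and in heterozygote libraries these genes overlapped. Fen1 and Mcm4 overlapped in wild type, so their order is not resolved. The lowest were Orc1 at 18.9, Cdc6 at 21.3 and Tyms at 21.7, which also overlapped one another. Both called genes belong to the lower part of this order, with Mcm10 at 28.6 and Pole at 33.9 in wild type and 48.4 and 48.9 in the heterozygote mean. Exon length here is the union of all annotated exons, which can exceed the length of the transcript that a cell makes.

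**Figure D4:**
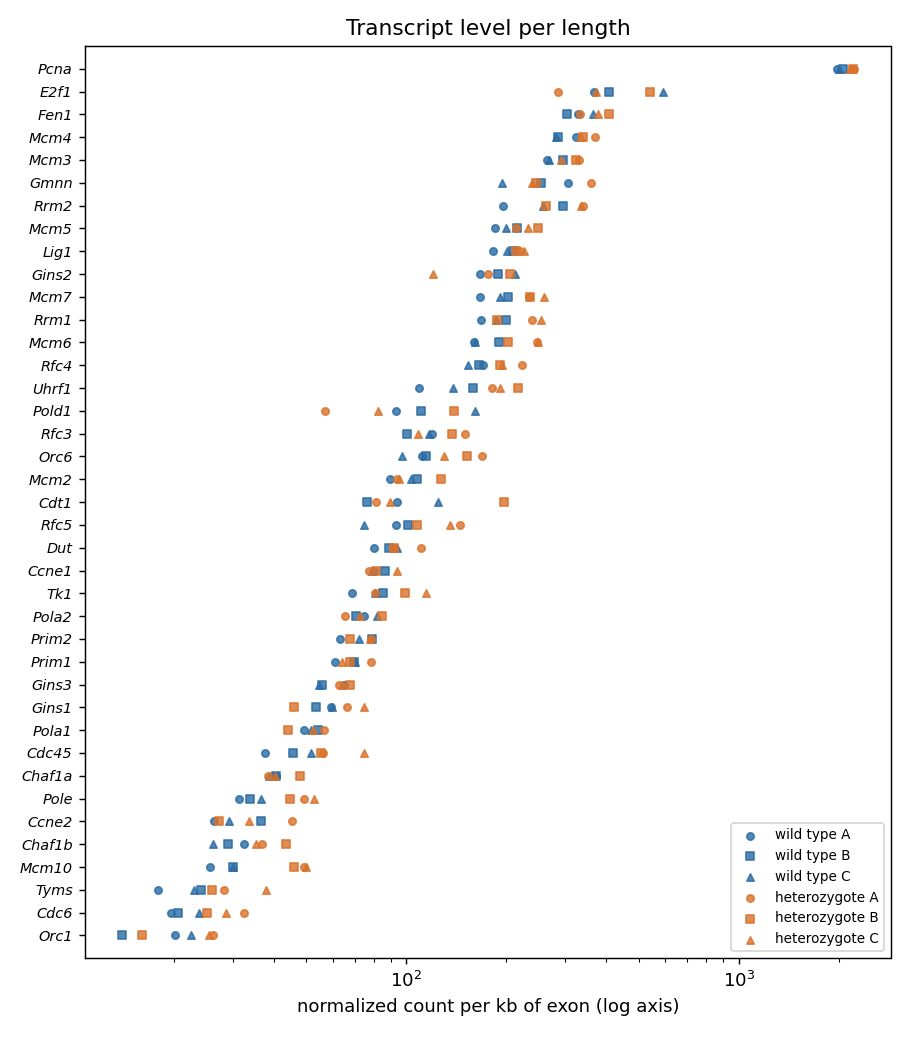
Normalized counts per kb of exon (log axis) for the 39 genes in wild type (blue) and heterozygote (orange) libraries A, B and C, ordered by the wild type mean. Pcna stands apart at the top, with a wild type mean of 2014, and most neighbouring genes overlap.

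Calls in the rest of the replication pathway were near the background. Of 68 further replication genes, 2 rose (2.94%) and 0 fell by the deposited test, against 2.51% upward and 3.52% downward of all tested genes. At an unadjusted p of 0.05, 16 were higher and 0 lower, against 7.34% of all tested genes higher, and the median log2 ratio was 0.17. Fbxo5, the inhibitor of the mitotic ubiquitin ligase in S phase, had 166, 168 and 176 normalized counts in wild type and 286, 262 and 295 in heterozygote libraries, with an adjusted p of 0.000892 (the authors' deposited table). Dtl, which directs Cdt1 to destruction during S phase, had 206, 232 and 221 in wild type and 342, 307 and 348 in heterozygote libraries, with an adjusted p of 0.00807 there. Among further origin genes the smallest adjusted p in the authors' deposited table was that of Ticrr (0.131), among fork genes that of Clspn (0.0779) and among chromatin genes that of Asf1b (0.216). Of 15 genes of replication stress and S-phase repair, Rad51ap1 rose, at 81.4, 99.8 and 93.6 in wild type and 168, 154 and 201 in heterozygote libraries, and no other was called, which is 6.67% of the list against 2.51% upward and 6.04% in either direction of all tested genes.

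Genes of mitosis, the later cell cycle stage, gave a larger count. Of 30, 23 rose (76.7%, against 2.51% of all tested genes) and 0 fell by the deposited test, with a median log2 ratio of 0.69. The median over the mitotic genes, as log2 over the wild type mean, was 0.78, 0.48 and 0.81 in heterozygote libraries A, B and C, and -0.19, 0.20 and 0.014 in wild type. For the replication genes it was 0.32, 0.24 and 0.20 and -0.11, 0.040 and 0.044. Heterozygote library B was thus the lowest heterozygote library for mitotic genes and lay between the others for these replication genes. For the further replication genes library B was also the lowest, at 0.23, 0.086 and 0.20 in heterozygote libraries A, B and C. The same held for genes of replication stress and S-phase repair, at 0.53, 0.11 and 0.29. The place of library B therefore does not separate mitotic from replication genes. The smallest adjusted p among the mitotic genes in the authors' deposited table were those of the kinesins Kif23 (5.21e-05), Kif20a (5.4e-05), Kif2c (0.00049) and Cenpe (0.000789). These kinesins act on the spindle, the kinetochores and the dividing furrow. The call count depended on the test: limma called 3 of 30 mitotic genes, against 2.15% of all genes. With the GC trend removed it called 13, against 4.85%, and without 1 library 0 to 6, against 0.272% to 2.24%. Of 12 genes of G1 control, 3 fell (25.0%, against 3.52% of all tested genes) and 0 rose. They were the cyclin D gene Ccnd1 and the kinase inhibitors Cdkn1a and Cdkn1c, the last from 377, 187 and 363 normalized counts in wild type to 21.2, 80.5 and 46.4 in heterozygote libraries A, B and C. The neutrophil marker sums and the spread of GC-rich genes given above hold for these lists too, and their part in them was not tested. Whether the difference between genotypes is larger for mitotic than for replication genes was not tested.

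**Figure D5:**
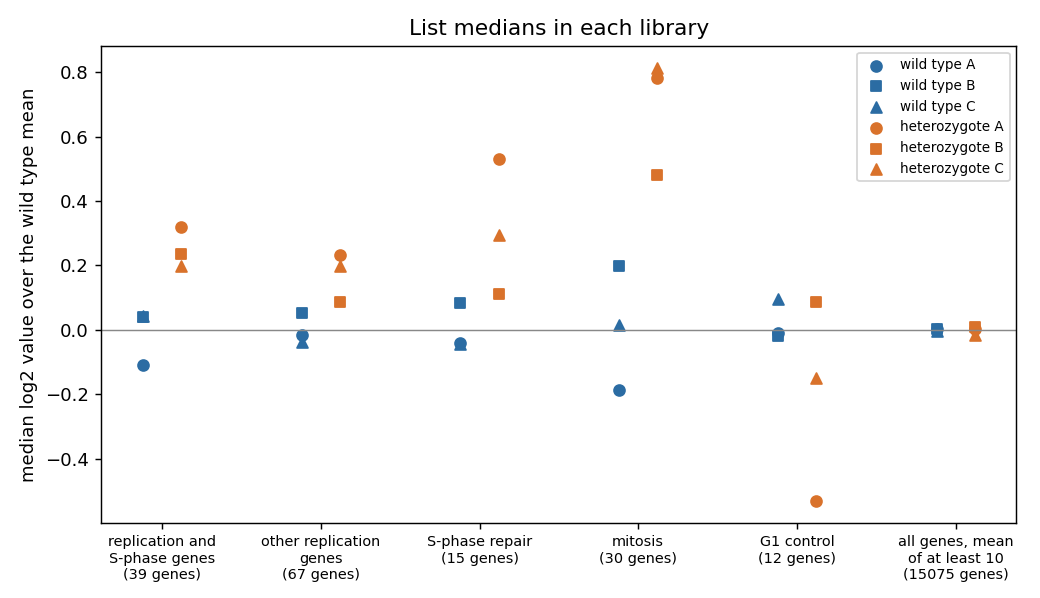
Each point is the median, over the genes of a list, of log2(normalized count + 1) minus the wild type mean, in 1 library (wild type blue, heterozygote orange). The replication genes reach 0.20 to 0.32 in heterozygote libraries and the mitotic genes 0.48 to 0.81, while the median of all genes lies between -0.015 and 0.0099.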

How the data were processed

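RNA was sequenced from 3 wild type and 3 heterozygote macrophage libraries. The submitters' processing notes name FastQC, TopHat 1.0.0, Cufflinks and build mm10, and the read counter, its use of strand and the normalization are, in the sources used here, not given. The deposited signal per gene is a group mean of normalized counts, per the file headers. The deposited log2 fold changes, their standard errors, the test score (fold change over standard error) and the p-value and adjusted p-value per gene were made by the authors, and the column names are those of a DESeq2 results table. These fold changes are drawn towards 0, and 10989 of 26778 genes have no adjusted p.

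The main call is the authors' adjusted p at 0.05, for genes whose mean is at least 1. Low group means are sums of whole multiples of 3 steps, so the counts of each library were recovered for 26285 genes (98.2%), and size factors recomputed from them deviated by at most 0.176%. limma 3.58.1 (R 4.3.3, trend, Benjamini-Hochberg adjustment) was run on log2(normalized count + 1) of genes with a mean of at least 10. Both steps were tested on simulated data. No column carries a replicate number, and a permutation test of 3 against 3 cannot go below 0.1. A recovered count covers counting error only through the spread between libraries.

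The genes and lists were chosen with earlier results of these data known. Full values are given for called genes and, per role group, for the gene with the highest mean and the one with the lowest deposited fold change. Further genes were named by the smallest adjusted p. Alternatives were other thresholds, pseudocounts, scalings and filters, each library left out, and a term for the libraries with mt-Co2 reads. Removing a GC trend per library was added after seeing the data.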

Additional observations from a re-analysis of the deposited data

How the results depend on the processing

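Calls were sensitive to the test. Of the 39, 2 were called at the main threshold, 1 at an adjusted p of 0.01, 7 at 0.1, and 1 by limma with the recovered size factors, with upper-quartile scaling, with a term for the libraries with mt-Co2 reads, or with no filter on low counts. Without 1 library limma called 0 to 0, that is, none in any of the 6 omissions, and with the GC trend removed 2. Of the 68 further replication genes limma called 1, and 0 to 2 without 1 library. Of the 30 mitotic genes the deposited test called 23 and limma 3. With the GC trend removed limma called 13 of the 30, and 0 to 6 without 1 library, 6 being the count without heterozygote library B. The fewest genes called among all genes, 41, came without wild type library B, and 324 were called with all libraries. The median log2 ratio of 0.21 stayed between 0.17 and 0.27 under every alternative run. Among 13 named replication genes 122 of 143 alternative values kept direction and call, 14 lost a call and 7 turned sign. All 14 lost calls were those of Mcm10 and Pole, the only 2 of these genes called at the main threshold. The other named genes had no call to lose, so the 122 do not measure how stable the calls were. The 7 that turned sign were fold changes of uncalled genes without 1 library, where limma values ranged from -0.022 to 0.14 for Chaf1a, -0.45 to 0.013 for E2f1, -0.37 to 0.012 for Gins2, -0.077 to 0.14 for Mcm2 and -0.13 to 0.056 for Pola2, and the cause was not tested. Upper-quartile scaling moved the median of all genes by 0.057 (log2). No paired analysis was possible because the recovered libraries carry no replicate numbers.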
